A study of Drosophila melanogaster with 2 samples.

Results

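The structural cuticle proteins of Drosophila melanogaster were compared between 2 arrays, 1 of the yw control and 1 of the homozygous mbf1 mutant. The members were chosen by symbol, as genes named Cpr with a number, Lcp, Ccp84, Twdl, Edg or Pcp, together with Acp65Aa and Acp1. There were 93 such genes among 10844 genes with a probe set of a single symbol, read by 99 of 14010 probe sets. The animals, labelled as embryos, had spent 16 h at 25 °C since the eggs were laid, and their RNA was hybridised to the first Affymetrix Drosophila chip. The control genotype, yw, is mutant for the pigment genes yellow and white. The labels do not say whether the mbf1 animals also carried these pigment mutations, and they give neither the mbf1 allele nor the number of animals per array. The study asked which genes are under the control of MBF1, a bridging factor that joins transcription factors to the TATA-binding protein.

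Insect cuticle is a matrix of chitin fibres and protein that the epidermis secretes anew for each larval, pupal and adult stage. Most Cpr, Lcp, Acp, Edg, Pcp and Ccp84 proteins hold the Rebers-Riddiford consensus, a stretch that binds chitin, while Tweedle (Twdl) proteins are a separate family that takes part in setting body shape. Pulses of the steroid hormone ecdysone time the use of these genes. Edg84A is a known target of the nuclear receptor FTZ-F1, and in silkworm and fly MBF1 is known as a partner of FTZ-F1.

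The mbf1 transcript, which checks the labels, had signals of 479 for yw and 22.1 for mbf1. Despite the embryo label, markers of organs that form after the embryo exceeded the floor on both arrays. The floor is a signal of 17.7, the 40th percentile of both arrays, and it replaced any lower value. It was exceeded on both by all 23 testis and accessory gland genes and all 7 adult eye genes read here. Of 23 genes of the early embryo and of neuroblasts, 9 exceeded it on yw and 9 on mbf1, where 66.0% and 66.3% of all genes did. Above it on both were ftz, hb, odd, prd, twi, sc and pros. Under it on both were 12, with gt, Kr, sna, en and ase among them. Median signals on yw and mbf1 were 708 and 745 for the testis and accessory gland genes and 155 and 162 for the adult eye genes. They were 13.6 and 9.15 for the early embryo list and 30.4 and 30.3 for all genes. No array here gives the levels to expect at 16 h, and the arrays are called here by their genotype. All ratios are mbf1 over yw on the log2 scale, after centring on the bulk of bright probe sets, which removed a shift of 0.55. With 1 array per genotype there was no test, no value below has a replicate error, and array and genotype cannot be told apart. From 260 genes with a pair of probe sets measured on each array, the SD of a single ratio was 0.39, and this leaves out error between arrays and samples.

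As a family, transcripts of cuticle proteins had lower signals on the mbf1 array. Of the 93 genes, 43 were under the floor on both arrays, where 3156 of all 10844 genes were. The other 50 were above it on at least 1, and these 50 are called measured. Among the 50, 9 were lower on the mbf1 array by at least 2-fold, where 1.63% of all 7688 measured genes were that low, and 0 were at least 2-fold higher, where 1.51% of all measured genes were that high. The median ratio of the 50 was -0.46, beside a median of -0.00085 over all measured genes, and 39 of the 50 ratios were below 0, where 50.1% of all were. That count depends on the scaling, and was 21 of 51 with the values as deposited and 31 of 48 with centring on hybridization controls. Below the median of all measured genes in the same setting were 39, 44 and 41 members in turn. These settings differ by a shift common to all genes, so the latter counts could differ only through the floor. At a threshold of 1.5-fold 19 were lower and 1 higher, where 7.71% and 7.45% of all measured genes were. Among the 35 members above the floor on both arrays, which no missing value on either side had brought in, the median was -0.50, and 31 were below 0 where 50.4% of all such genes were. The number of members detected was nearly equal, with 43 over the floor in yw and 42 in mbf1. These were 46.2% and 45.2% of the family, where 66.0% and 66.3% of all genes were over it. There were 8 members above it on the yw array only and 7 on the mbf1 array only, where 4.6% and 4.91% of all genes were so. Those on the yw array only reached a signal of 59.9 there, and those on the mbf1 array only reached 30.8. In whole animals, fewer epidermal cells and less RNA per cell cannot be told apart.

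**Figure D1:**
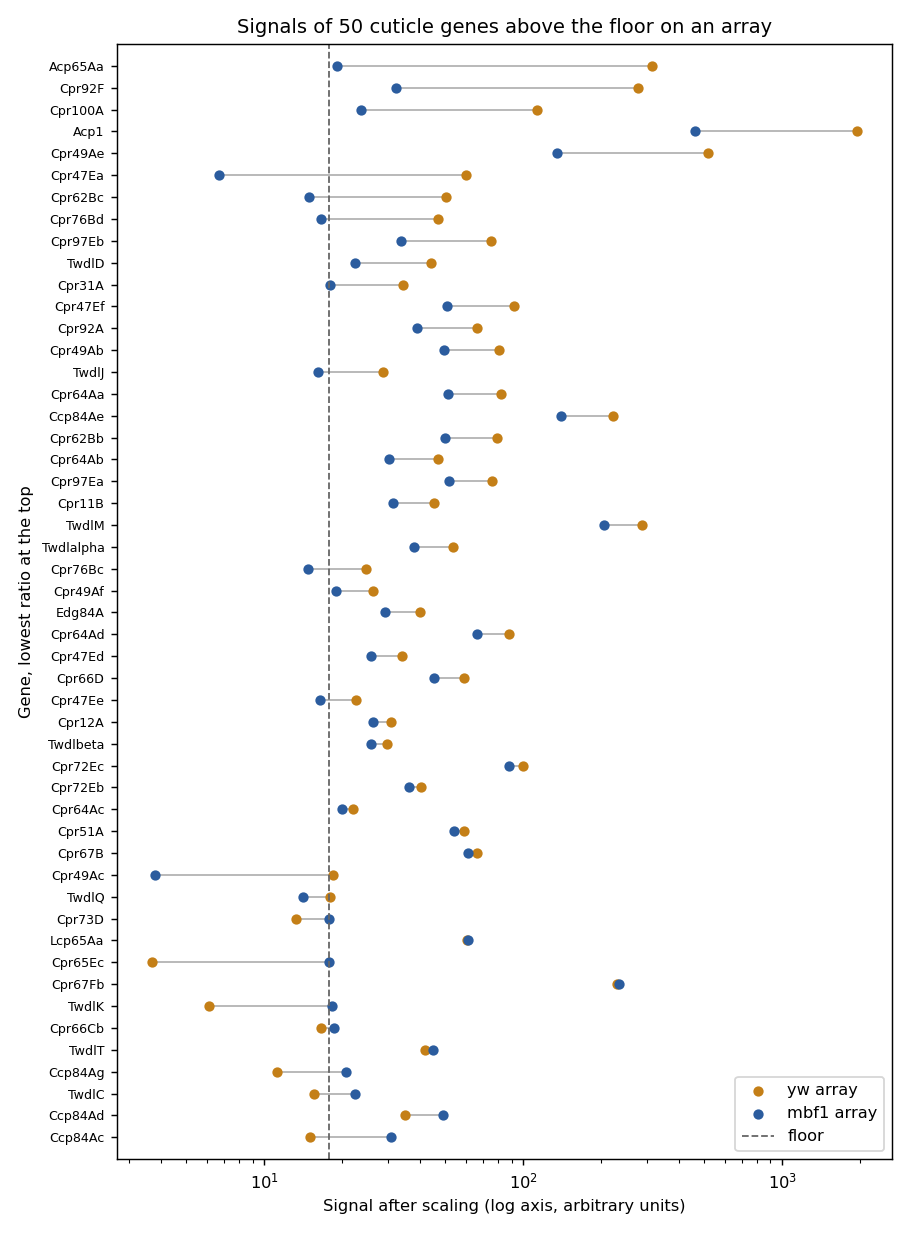
Signals of the 50 cuticle genes above the floor on at least 1 array, on a log axis in arbitrary units, with the yw array in orange, the mbf1 array in blue and the floor of 17.7 as a dashed line. Genes are ordered by ratio after the floor is applied, from Acp65Aa at -4.05 at the top to Ccp84Ac at 0.80 at the bottom, and the blue point lies to the left of the orange one in 39 of 50.

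Both genes named for the adult cuticle were far lower on the mbf1 array. Acp65Aa, an adult cuticle protein of the 65A cluster, had a signal of 315 in yw and 19.0 in mbf1. Its ratio of -4.05, or 16.6-fold lower, was the second lowest of all 7688 measured genes, after mbf1 itself, and the mbf1 array's value lay just above the floor. Acp1, an adult cuticle protein coded on chromosome arm 2L, had signals of 1946 and 459. Its ratio was -2.08, or 4.24-fold lower, and it was well above the floor on both arrays.

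The larval genes gave almost no readable values. Of 6 genes with a larval name or a larval synonym, only Lcp65Aa was above the floor, with signals of 60.7 and 61.0 and a ratio of 0.01. Lcp65Aa is the immediate neighbour of Acp65Aa in the gene table, so the lowest ratio of the family lay beside a gene whose signal was almost equal on both arrays. Lcp65Ac, Lcp65Ad, Lcp65Af, Lcp9 and Cpr47Eg, which has the synonym Lcp2a, were under the floor on both. A probe set shared by Lcp65Ag1, Lcp65Ag2 and Lcp65Ag3 had signals of 32.2 and 14.2, or at least 1.82-fold lower, and another shared by Lcp65Ag1 and Lcp65Ag2 was under the floor on both.

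Of the 4 pupal genes, Edg84A was above the floor. Its signals were 39.8 and 29.3 and its ratio was -0.44, close to the median of the family. Edg78E and Edg91, which like Edg84A are named for their dependence on ecdysone, and Pcp, a pupal cuticle gene that lies inside an intron of the purine synthesis gene Gart, were under the floor on both arrays. Edg84A, Lcp65Aa and the single neighbours named below were chosen with their values known.

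The other 81 members carry no stage in their names, and 46 of them were measured. Their median ratio was -0.44, with 36 of 46 below 0. They held 7 of the 9 genes that were lower by 2-fold or more. Of these 9, 6 were above the floor on both arrays, where 1.38% of all such genes were at least 2-fold lower. The other 3 were under it on the mbf1 array, so their folds are lower bounds.

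Cpr92F, a Rebers-Riddiford family gene that stands alone on chromosome arm 3R, had signals of 278 and 32.2. At -3.11, or 8.62-fold lower, it was the fourth lowest of all measured genes. Cpr100A, also without a family neighbour on 3R, had signals of 112 and 23.6, or 4.76-fold lower. With Acp65Aa and Acp1 these made 4 members at least 4-fold lower, where 0.182% of all measured genes were that low, and 5 members were among the 20 lowest ratios of the whole array. The fifth was Cpr49Ae, with signals of 515 and 135 and a ratio of -1.93. Cpr97Eb, with signals of 75.0 and 33.7, was 2.23-fold lower.

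The remaining 3 were bright enough for a value on the yw array only. Cpr47Ea had signals of 59.9 and 6.65 and was at least 3.38-fold lower. Cpr62Bc had signals of 50.5 and 14.9, or at least 2.85-fold lower, and Cpr76Bd had 46.9 and 16.5, or at least 2.65-fold lower. For Cpr62Bc and Cpr76Bd the signal on the mbf1 array lay only slightly under the floor, so the bound is near the ratio of the signals themselves.

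**Figure D2:**
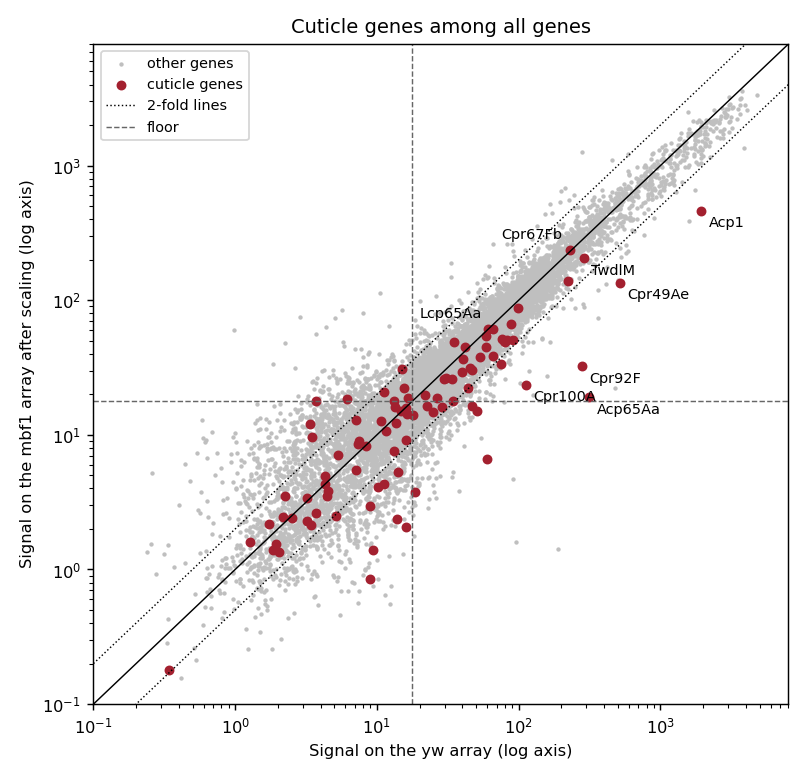
Signal of each gene on the yw array against the mbf1 array after scaling, both on log axes, with 93 cuticle genes in red and all other genes in grey; the solid line marks equal signals, the dotted lines a 2-fold difference and the dashed lines the floor of 17.7. Acp65Aa, Cpr92F, Cpr100A, Acp1 and Cpr49Ae lie far under the 2-fold line, while Cpr67Fb and Lcp65Aa lie on the line of equal signals.

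Behind these 9 was a wider and smaller difference in the same direction. Above the floor on both arrays 11 further members had ratios of 0.5 to 1 in size, and all 11 were negative, where 53% of all genes of that size above the floor on both arrays were. TwdlD, the Tweedle protein named for the mutant with a short, stout body, was at -0.98, with signals of 43.9 and 22.3. Cpr31A was at -0.94, Cpr47Ef at -0.86 and Cpr92A at -0.76. Cpr49Ab was at -0.71, Cpr64Aa at -0.68, Ccp84Ae and Cpr62Bb at -0.67 each. Cpr64Ab was at -0.62, Cpr97Ea at -0.56 and Cpr11B at -0.52. Of the 28 measured members with a ratio under 0.5 in size, 18 were below 0. The share of all genes of that size below 0 was not counted. For members above the floor on 1 array only, the floor set the sign. Such were Cpr76Bc, Cpr47Ee, Cpr49Ac and TwdlQ below 0, and Ccp84Ag, Cpr65Ec, Cpr66Cb, Cpr73D, TwdlC and TwdlK above 0.

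The brightest members were mostly among the lower ones. The 10 with the highest mean signal had a median ratio of -0.76, with 9 of 10 below 0 and 4 at least 2-fold lower, and only Cpr67Fb and Cpr72Ec lay within 0.25 of 0. The other 40 measured members had a median of -0.39. Across the 35 members above the floor on both arrays, Pearson's r between log2 mean signal and ratio was -0.49 and Spearman's rho -0.35, where r over all 6657 such genes was -0.048. These points share both arrays, and signal and ratio come from the same values. Of the measured members with a ratio under 0.5 in size, the 5 brightest were as follows. Cpr67Fb had signals of 229 and 235, a ratio of 0.04. Cpr72Ec had 99.5 and 88.2, a ratio of -0.17, and Cpr67B had 66.4 and 61.0, a ratio of -0.12. Cpr64Ad, at 87.9 and 66.1, had a ratio of -0.41. TwdlM, the Tweedle gene with the highest signal, had 288 and 205 on its brighter probe set, a ratio of -0.50, while its dimmer probe set, at 24.8 and 35.1, gave 0.50.

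The highest ratios were in the 84A cuticle cluster. Ccp84Ac was under the floor on the yw array at 15.1 and had 30.8 on the mbf1 array, or at least 1.74-fold higher. Ccp84Ad had signals of 34.9 and 48.8 and a ratio of 0.48, but its probe set carries a suffix for sequence shared within a gene family, so signal from its near copies cannot be separated. TwdlC, at 15.5 and 22.5, was at least 1.27-fold higher. With the floor applied none of these reached 2-fold, but for Ccp84Ac and TwdlC the folds are lower bounds. With a floor at the 25th percentile 3 members were at least 2-fold higher.

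By family, the Cpr genes made up most of the measured members and also most of the low ratios. Of 58 Cpr genes 33 were measured, with a median of -0.48, and 29 of the 33 were below 0, with 7 at least 2-fold lower. Of all 50 measured members 39 were below 0 and 9 at least 2-fold lower. Of all measured genes 50.1% were below 0 and 1.63% at least 2-fold lower. Of 20 Tweedle genes 9 were measured, with a median of -0.20, 6 below 0 and 0 at least 2-fold lower or higher. All 4 Ccp84 genes with a single-symbol probe set were measured, with 1 below 0 and 3 above. The difference between these families was not tested, and the Tweedle genes were mostly dim, with 11 of 20 under the floor on both arrays.

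Cuticle genes lie in tandem clusters, and neighbours were compared next. By gene order, 96 of 126 family genes fell into 18 clusters, in which no more than 5 other protein-coding genes separate 2 members, and 10 clusters had at least 2 measured members. In 6 of the 10 every measured ratio was below 0. A gene above the floor on the yw array only is below 0 by construction. This held for Cpr47Ea, Cpr47Ee, Cpr49Ac, Cpr62Bc, Cpr76Bc and Cpr76Bd, so their signs do not bear on whether neighbours were alike. The 47E and 49A clusters on chromosome arm 2R held 4 measured genes each, led by Cpr47Ea and Cpr49Ae. All 8 were below 0, where 50.1% of all measured genes were. The 4 genes of the 64A cluster lay close together, from -0.68 for Cpr64Aa to -0.14 for Cpr64Ac, and the 2 measured genes of 72E, Cpr72Eb and Cpr72Ec, lay at -0.15 and -0.17. In 62B and 76B the pairs were Cpr62Bb at -0.67 with Cpr62Bc at -1.51, and Cpr76Bc at -0.48 with Cpr76Bd at -1.41.

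Other clusters were mixed. In 84A, Ccp84Ae at -0.67 and Edg84A at -0.44 lay among Ccp84Ag at 0.23, Ccp84Ad at 0.48 and Ccp84Ac at 0.80. In 97E, TwdlT at 0.10 was followed by Cpr97Ea at -0.56 and Cpr97Eb at -1.15. The widest gap between neighbours was the one in 65A, between Lcp65Aa and Acp65Aa. In the Tweedle cluster on 3R, 5 of 11 genes were measured, from TwdlD at -0.98 to TwdlK at 0.05, with a median of -0.50. Without probe sets that carry a suffix in their name, as those of TwdlM and TwdlJ do, 3 were left and the median was -0.015. Of the 9 lowest genes, 6 were spread over 6 clusters and 3 stood outside any, so no cluster held more than 1.

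**Figure D3:**
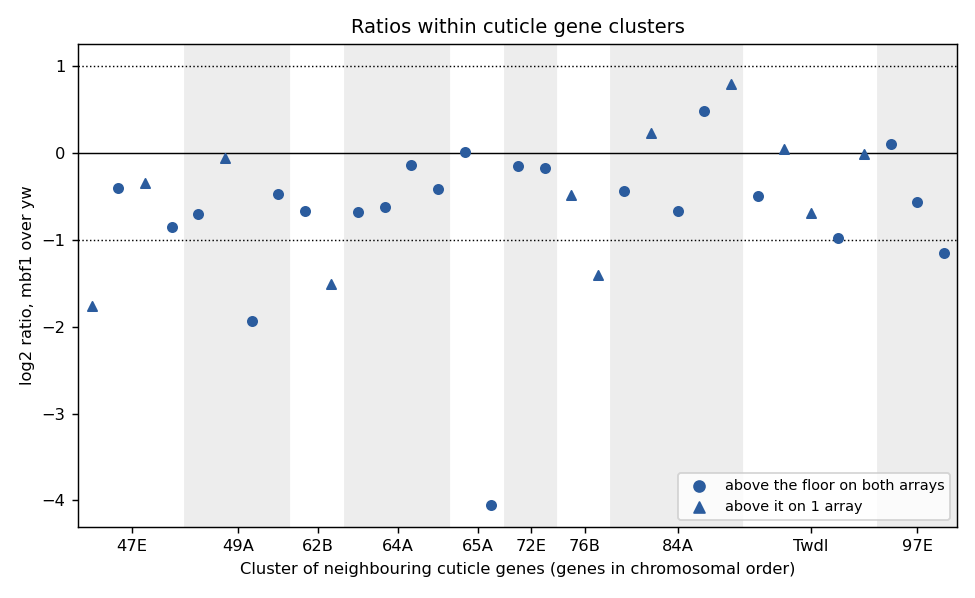
Ratio of mbf1 over yw on the log2 scale for measured genes of the 10 cuticle clusters with at least 2 of them, in chromosomal order, with circles for genes above the floor on both arrays and triangles for those above it on 1. Dotted lines mark a 2-fold difference. All 8 genes of 47E and 49A lie below 0, 84A spans -0.67 to 0.80, and 65A holds Lcp65Aa at 0.01 beside Acp65Aa at -4.05. The sign of each triangle is set by the floor.

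Genes next to the 9 lowest members but outside the family had ratios on both sides of 0, more of them below it. Counting 3 protein-coding genes on each side, 18 such neighbours were measured, with a median ratio of -0.24. Of the 18, 12 were below 0 and 1 was at least 2-fold lower, where 50.1% and 1.63% of all measured genes were. At 1.5-fold 5 of the 18 were lower and 2 higher, where 7.71% and 7.45% of all measured genes were. Within 0.25 of 0 lay 4. The gene at least 2-fold lower was CG7214, directly beside Acp1, with signals of 1589 and 386. It was 4.12-fold lower, close to the 4.24-fold of Acp1. CG7203, the third gene on the same side of Acp1, had 2821 and 1864, a ratio of -0.60, while ATPsynGL between them had a ratio of -0.18. CG4000, beside Cpr92F, had 1576 and 973, a ratio of -0.70.

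Genes read by several probe sets gave a check within an array. Both probe sets of Cpr66D were below 0, at -0.39 and -0.53, and those of TwdlT were near 0, at -0.03 and 0.10. Those of TwdlM, given above, lay on opposite sides of 0, at -0.50 and 0.50. TwdlJ was at least 1.62-fold lower on its brighter probe set, with signals of 28.7 and 16.2, while the other was under the floor. One probe set of Cpr73D was under the floor on both arrays, and the other had signals of 13.3 and 17.8, the second just above the floor. TwdlN was under it on both of its probe sets. None of those 9 lowest genes had a second probe set.

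Among the related lists, the other matrix proteins that bind chitin or line the cuticle came nearest to the family. Of 22 on the array 11 were measured, with a median of -0.63, 10 below 0 and 2 at least 2-fold lower. These were Vajk3, at least 4.45-fold lower, and obst-B, a chitin-binding obstructor protein, at -1.51. For Vajk3, Gasp and resilin only the yw signal passed the floor, so the floor set their sign. Among the 8 that passed it in both genotypes the median was -0.34, with 7 below 0 and 1 at least 2-fold lower. Of all such genes 50.4% were below 0 and 1.38% were that low. The median of the 11 also rests on the choice of probe set, and was -0.28 when all probe sets of a gene were averaged. Probe sets of 1 gene disagreed in both directions. Those of Vajk2 gave -0.80, the value used, and -1.19 and -1.63. Those of Vajk4 gave -0.06, the value used, and -0.77, with one more under the floor. Those of obst-A gave -0.63 and 0.08. Those of obst-E gave -0.50 in one case and, in the other, signals of 10.6 and 35.4, which is above the floor on the mbf1 array only.

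Genes that make and modify chitin had a median closer to 0. Of all measured genes 50.1% were below 0 and 1.63% at least 2-fold lower. Of the 26 genes of this list 21 were measured, with a median of -0.15, 14 below 0 and 1 at least 2-fold lower. That was serp, a chitin deacetylase of tracheal and epidermal cuticle, at -1.11, with its other probe set at -0.29. The related deacetylase gene verm was at -0.75, and kkv, the chitin synthase, had signals of 26.4 and 6.31, or at least 1.49-fold lower. The highest ratio of the list was 0.72, for Idgf1, a chitinase-like growth factor gene. At 1.5-fold 5 of the 21 were lower and 1 higher, where 7.71% and 7.45% of all measured genes were. Among the 5 were mmy at -0.72 and Cht5 at -0.73.

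Of all measured genes 50.1% were below 0 and 1.63% at least 2-fold lower. Genes of cuticle tanning and pigment had a median of -0.06 over 18 measured of 25, with 12 below 0 and 1 at least 2-fold lower. This was Pxd, a peroxidase, with signals of 46.0 and 16.2. The others ranged from yellow-f2 at -0.91 and Pu, which codes for the first enzyme of pterin synthesis, at -0.90, to t, which codes for an enzyme that frees dopamine from its beta-alanine conjugate, at least 1.54-fold higher. Between these lay amd at -0.57, ple, tyrosine hydroxylase, at -0.05, and Ddc, dopa decarboxylase, at 0.22. Of 24 ecdysone response genes and other regulators of cuticle, 13 were under the floor on both arrays, where 3156 of all 10844 genes were. Besides mbf1 itself 10 were above the floor, with a median of 0.10 and 3 below 0, and the largest in size were ovo, at least 1.37-fold higher, and Blimp-1, an ecdysone-induced repressor, at -0.40. The signals of ftz-f1, 13.0 and 8.20, did not reach the floor, nor did those of EcR and usp, whose proteins together form the ecdysone receptor.

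**Figure D4:**
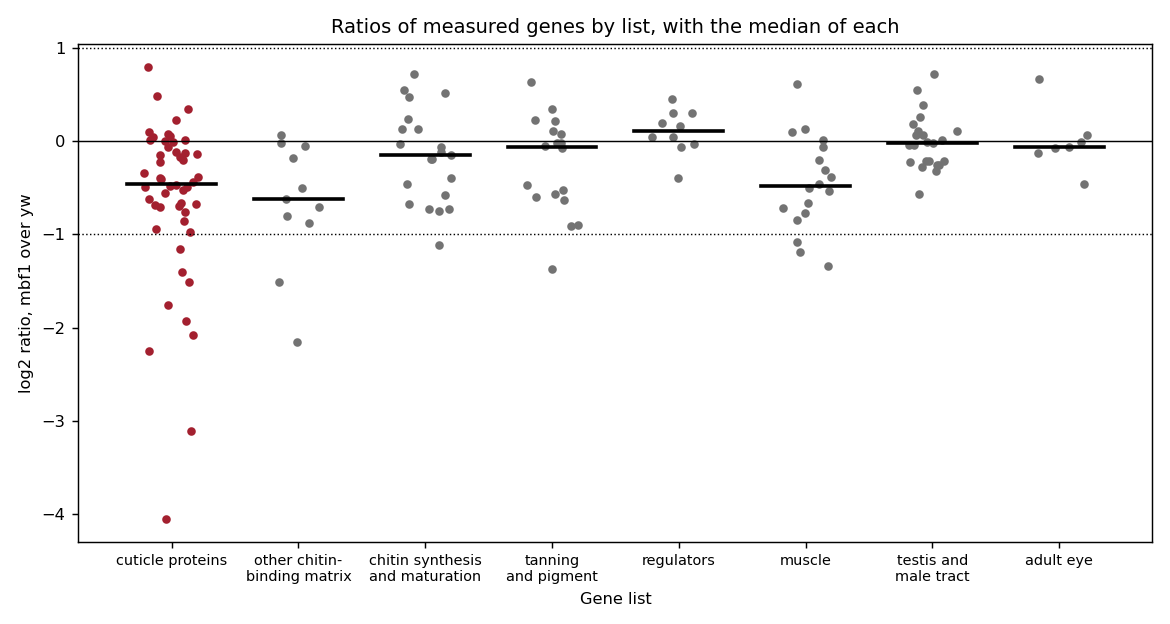
Ratio of mbf1 over yw on the log2 scale for each measured gene by list, with a black bar at the median of the list and dotted lines at a 2-fold difference; mbf1 is left out of the regulators. Medians are -0.46 for cuticle proteins, -0.63 for the other chitin-binding matrix, -0.15 for chitin synthesis and maturation, -0.06 for tanning and pigment, 0.10 for regulators, -0.48 for muscle, -0.02 for testis and male tract and -0.07 for the adult eye.

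Some markers of other tissues differed in the same direction as the cuticle genes. Muscle genes had a median of -0.48, with 14 of 18 below 0 and summed signals of 19334 and 13122, and fln, Mlp60A and TpnC4 were at least 2-fold lower. Of all measured genes 50.1% were below 0 and 1.63% at least 2-fold lower. Epidermal and tracheal markers had 8 of 9 measured genes below 0, with summed signals of 626 and 406, though 6 of that list's 13 genes also stand in the chitin or matrix lists. Of those in neither, 4 were measured, with a median of -0.24 and 3 below 0, against a median of -0.58 for the whole list. For Gasp, kkv and sinu only the yw signal passed the floor, so the floor set their sign. Among the 6 epidermal and tracheal markers that passed it in both genotypes, 5 were below 0 and the median was -0.50. The part of these markers in the cuticle result was not tested. Testis and accessory gland genes were near equal, with a median of -0.02, 13 of 23 below 0 and summed signals of 25505 and 22971. Adult eye genes had a median of -0.07 and sums of 2705 and 2723. Eggshell and yolk genes had 7 of 14 measured, 4 of them below 0, with sums of 363 and 292, and the early embryo list had 5 of 11 below 0, with sums of 367 and 365. The counts below 0 of the testis, eggshell and early embryo lists lay near the share of all measured genes.

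The position of the family relative to all genes held under every scaling and floor tried, although the sign of its median depends on the scaling. Leaving out the scaling, or centring on hybridization controls, shifts every gene by the same amount. These settings could move the position only through the floor, so they are no separate check of it. Without scaling the median of all measured genes was 0.50 and that of cuticle genes 0.075, while centring on hybridization controls gave 0.19 and -0.27. The family's median minus that of all genes lay between -0.50 and -0.39 in the main setting and the 10 other settings of scaling, floor and probe sets.

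**Figure D5:**
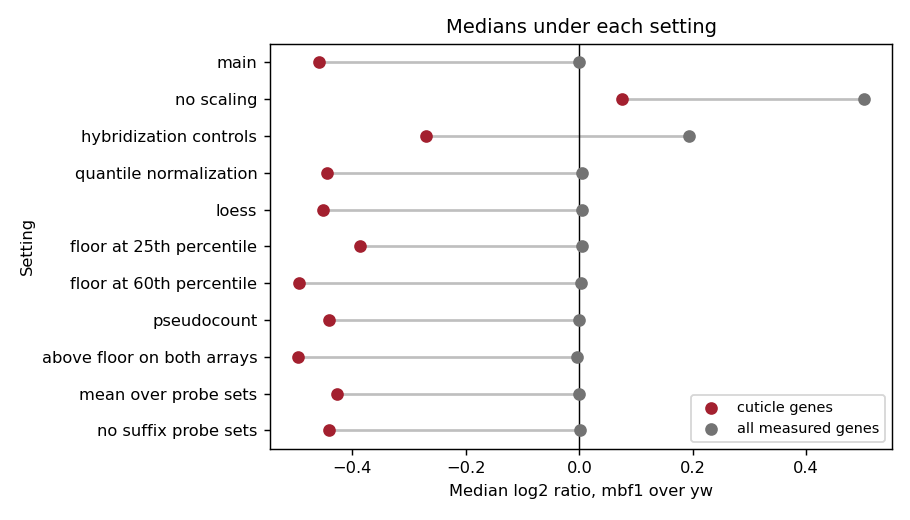
Median log2 ratio of measured cuticle genes, in red, and of all measured genes, in grey, under the main setting and 10 others, named on the vertical axis. The red point lies to the left of the grey one in each, by 0.46 in the main setting. Both points shift to the right without scaling or with scaling on hybridization controls. Those settings shift all genes alike, so the gap could change there only through the floor.

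The cuticle genes without a value were the following. Under the floor on both arrays were Cpr5C, Cpr11A, Cpr23B, Cpr30B, Cpr35B, Cpr47Eb, Cpr47Ec, Cpr49Ad, Cpr49Ah, Cpr50Ca, Cpr50Cb, Cpr56F, Cpr62Ba, Cpr65Az, Cpr65Ea, Cpr65Eb, Cpr67Fa2, Cpr72Ea, Cpr76Ba, Cpr76Bb, Cpr78Ca, Cpr78Cb, Cpr78Cc and Cpr78E. So were the Tweedle genes TwdlE, TwdlF, TwdlG, TwdlL, TwdlN, TwdlO, TwdlP, TwdlR, TwdlS, TwdlV and TwdlW, beside the larval and pupal genes named above. The highest signal among these 43 genes was 16.4. The remaining measured members, Twdlalpha, Twdlbeta, TwdlQ, Cpr12A, Cpr49Ac, Cpr49Af, Cpr47Ed, Cpr47Ee, Cpr51A, Cpr65Ec and Cpr66Cb, had ratios from -0.49 to 0.07.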

How the data were processed

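Each deposited value is the linear intensity of a probe set on an array, made with MAS5 per the submitters' processing notes. The software version and target level are not stated. The table had 0 columns of other samples. Probe sets were named from GEO's platform annotation, with 12443 holding 1 symbol, 327 several and 1239 none, and 1 control probe set with a symbol left out, and updated by gene identifier through a RefSeq gene table of the Release 6 assembly, used only for names, chromosome arms and gene order. A gene was read by its probe set of highest mean signal. The mbf1 array was divided by 1.47, the median ratio of probe sets brighter than their array's median on both arrays, and a floor was set at the 40th percentile of pooled values. Computation used python 3.11.15, pandas 2.3.3 and statsmodels 0.14.6, and was tested on simulated data. No depth applies to arrays, and their number, 1 per group, limits the precision.

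The members, lists and settings were chosen with earlier results of these data known. Named are all members at least 2-fold apart, those of 0.5 to 1 in size on the log2 scale above the floor on both arrays, the 5 brightest and the 3 highest of the others, members with several probe sets, and in related lists those at least 2-fold apart or else the 2 largest. Further members and list genes were named after their values were seen. Protein and promoter sequences were not used here.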

Additional observations from a re-analysis of the deposited data

Results flagged for a closer look

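A probe set annotated with both Cpr65Av and Cpr65Aw, neighbours in the 65A cluster, entered no comparison because it does not name a single gene. It was above the floor and had a signal of 26.2 on the mbf1 array, against 19.7 on the yw array, a ratio of 0.42. Of the 7 probe sets annotated with several genes of which at least 1 is a cuticle gene, it was the one that was both above the floor and higher on the mbf1 array. Another, annotated with Obp57d and Cpr57A, had 63.6 and 11.3, or at least 3.59-fold lower, and one for TwdlL and TwdlB had 28.0 and 18.1.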

How the results depend on the processing

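The count of 9 cuticle genes at least 2-fold lower was 7 without scaling, 8 on hybridization controls, 6 with a floor at the 60th percentile, 6 when both arrays had to exceed the floor and 9 or 10 in the other settings of scaling, floor and probe sets. It was 19 at 1.5-fold and 6 at 3-fold, by construction. The count at least 2-fold higher, 0, was 2 without scaling, 3 with a floor at the 25th percentile, 2 with a pseudocount and 1 at 1.5-fold. Without scaling, which put the median of all genes at 0.50, medians were 0.075 for the family, -2.52 for the adult genes, 0.56 for the larval, 0.11 for the pupal and 0.075 for those without a stage, and 0.38 for chitin, -0.013 for the matrix list, 0.39 for tanning and 0.51 for regulators. On hybridization controls, with all genes at 0.19, they were -0.27 for the family and for those without a stage, 0.065 for chitin, -0.35 for the matrix list, 0.15 for tanning and 0.25 for regulators. A floor at the 25th percentile gave -0.39 for the family and -0.48 for the matrix list. A floor at the 60th gave -2.61 for the adult genes and -0.42 for tanning. The matrix list was at -0.34 when both arrays had to exceed the floor and -0.28 with the mean over probe sets. Of 87 ratios of the 9 genes under other settings, 73 stayed within the SD between probe sets, 14 moved further and 0 changed sign. Some of the 73 could not move. Each of the 9 genes has 1 probe set without a suffix, so the settings for probe sets left its ratio unchanged. Requiring both arrays to exceed the floor also changes no ratio, and another floor or a pseudocount cannot change a sign. Cpr76Bd, lowest in size, was at -0.39 with the floor at the 60th percentile. The cause of these shifts was not tested beyond the construction of each setting. No paired analysis was possible because each genotype has 1 array. The low signal over background leaves no ratio for the 43 cuticle genes under the floor.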
